A study of Mus musculus with 36 samples.

Results

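Pmp22, Emp1, Emp2 and Emp3 are 4 related membrane protein genes, described here in mouse small intestinal organoids grown in 6 culture conditions. The 4 gene symbols were matched to the Ensembl identifiers of the count tables, and all 4 were found among the 52636 genes listed. The family was chosen by measured values of these libraries, the raised levels of Pmp22 and Emp3 and the lower level of Emp3 with an antibody against Ptk7. The comparisons that gave those values (SCM or Wnt5a against complete media, and anti-Ptk7 against IgG in either medium) are therefore given below as descriptions with no test. All 4 genes passed the filter on low counts, which kept 15497 genes.

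RNA was sequenced from organoids grown from jejunal crypts of C57BL/6 mice, with no age in the labels. There were 6 conditions with 6 libraries each, 36 in all. Complete media (IntestiCult) with control IgG was the base condition. QCM and SCM were media conditioned by quiescent and by senescent mouse embryonic fibroblasts, concentrated and mixed with IntestiCult. Each was given with IgG, and SCM was also given with anti-Ptk7. Complete media with added Wnt5a was given with IgG or with anti-Ptk7. Ptk7 is a pseudokinase receptor of noncanonical Wnt signaling whose shed extracellular part the study sought in the conditioned media. Every condition thus carried either IgG or anti-Ptk7, no genetic change was made, and QCM was not given with the antibody. The libraries of each condition are numbered 1 to 6, and the series describes crypts from 6 mice with origin numbers 1 to 6, but no label ties a library number to a mouse.

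Proteins of this family cross the membrane 4 times and sit in the same superfamily as the claudins, the sealing proteins of tight junctions. PMP22 is best known as a protein of compact myelin made by Schwann cells, where a changed gene dose causes inherited neuropathy, but it is also made by epithelia and found at cell junctions. The epithelial membrane proteins EMP1, EMP2 and EMP3 are its nearest relatives. EMP2 regulates the surface display of integrins and the activity of focal adhesion kinase, EMP1 is associated with squamous and differentiating epithelium, and EMP3 is widely made, including by blood cells and mesenchyme.

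The genes lie on 4 chromosomes of the mouse genome (GRCm38, the build named mm10 in the labels). Pmp22 (ENSMUSG00000018217) spans chr11:63128982-63159547 on the plus strand, and Emp1 (ENSMUSG00000030208) spans chr6:135362545-135383173 on the plus strand. Emp2 (ENSMUSG00000022505) spans chr16:10281749-10313968 on the minus strand, and Emp3 (ENSMUSG00000040212) spans chr7:45918023-45921404 on the minus strand. No other annotated gene overlaps any of them. No run of 50 bases, the read length, is shared between transcripts of any 2 members, and 0 of 2300 such runs of Pmp22 and 0 of 1067 of Emp3 occur in a transcript of another gene (7 of 5914 for Emp1 and 113 of 8571 for Emp2).

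RefSeq gives 9 start sites for the 4 genes, 4 of Pmp22, 2 each of Emp1 and Emp3 and 1 of Emp2. The 250 bases before each start were searched on both strands for GGAATG, the core letters bound by TEAD factors, the DNA-binding partners of YAP, and for TGANTCA, the letters bound by AP-1. The first held in 1 of the 9 windows and in 12.6% of all 32807 promoter windows of that length, the second in 1 of 9 and in 6.75%. The windows with a match are shown, of the 2 members with the largest folds over QCM below, with the matching letters in capitals, on the plus strand of GRCm38 and outside every annotated exon. Pmp22 is read at chr11:63128732-63128981, where its match is GGAATG on the opposite strand. Emp1 is read at chr6:135362708-135362903, and a second match of Emp1, 25 bases before the start, lies in an exon of another transcript and is not printed.
Pmp22: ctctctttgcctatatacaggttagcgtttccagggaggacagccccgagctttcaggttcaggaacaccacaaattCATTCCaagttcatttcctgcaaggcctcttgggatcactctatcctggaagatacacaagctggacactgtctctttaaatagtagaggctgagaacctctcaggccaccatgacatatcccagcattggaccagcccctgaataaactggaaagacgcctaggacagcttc
Emp1: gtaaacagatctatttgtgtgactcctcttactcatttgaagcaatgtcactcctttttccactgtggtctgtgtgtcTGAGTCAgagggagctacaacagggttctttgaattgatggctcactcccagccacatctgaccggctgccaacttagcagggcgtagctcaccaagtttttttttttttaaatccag
A match of letters is a description of the sequence and not of binding, and which start site the organoids used cannot be read from counts per gene.

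The libraries held 9581589 to 21029769 counts, with a median of 13490071. Epithelial markers were high in every condition, with the summed level of Epcam, Cdh1, Krt8, Krt18, Vil1, Cdx2 and Cldn7 between 7179 and 21668 CPM (counts scaled to one common library total, with TMM factors). Fibroblast markers stayed low, at 2.19 to 10.7 CPM summed over 10 genes in complete media, QCM and both SCM conditions, and at 15.4 to 66.3 CPM in both Wnt5a conditions. Most of that Wnt5a level was Fn1, with a mean of 18.1 CPM in Wnt5a and 27.1 CPM in Wnt5a with anti-Ptk7, while Col3a1, Dcn and Thy1 were at 0 counts in all 36 libraries. The other marker sums reached at most 18.1 CPM for immune cells, nearly all of it Csf1r, 1.18 CPM for endothelium, and 2.25 CPM for glia and Schwann cells. The part of these markers in the results below was not tested, and in bulk RNA fewer cells of a type and less RNA per cell cannot be told apart.

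Pmp22 had the widest range of the family relative to its level, from 0 counts in 3 libraries to 725 in 1. Its level in complete media was 0.386 ± 0.649 CPM (SD, n = 6), from 0 to 1.67 with a median of 0.156, and it rested on 24 counts over the 6 libraries, 16 of them in library 1 and 0 in 3 libraries. A count of 0 allows up to 3 counts in a library, which is 0.22 to 0.282 CPM in those 3 libraries. In QCM its level was 2.14 ± 1.05 CPM, from 0.506 to 3.72 with a median of 2.07, so that 5 of 6 QCM libraries lay above every library in complete media. In SCM it was 7.47 ± 6.38 CPM, from 2.16 to 19.2 with a median of 4.44. SCM with anti-Ptk7 gave nearly the same values, 8.03 ± 7.32 CPM, from 1.92 to 20.7 with a median of 5.08. In Wnt5a the level was 8.83 ± 5.38 CPM, from 3.94 to 17.3 with a median of 6.18. The highest level was in Wnt5a with anti-Ptk7, at 22.7 ± 21.7 CPM, from 8.12 to 65.4 with a median of 14.01. Every library of SCM and of Wnt5a was above every library in complete media, while the conditions above QCM overlapped each other. In order of the mean, only the step from complete media to QCM was larger than the SD of either condition.

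Emp1 had the most counts of the family and stepped up across the same media. In complete media it stood at 114 ± 38.7 CPM, from 70.5 to 158 with a median of 113. QCM libraries held 174 ± 59.9 CPM, from 91.1 to 244 with a median of 182, with 3 of 6 libraries above the range of complete media. SCM libraries held 414 ± 121 CPM, from 291 to 644 with a median of 396, all above the highest QCM library. With anti-Ptk7 in SCM the level was 259 ± 81.5 CPM, from 183 to 384 with a median of 245, and 4 of 6 libraries lay under the lowest SCM library with IgG. The highest level was in Wnt5a, at 673 ± 271 CPM, from 426 to 1184 with a median of 585. Wnt5a with anti-Ptk7 gave 542 ± 217 CPM, from 383 to 977 with a median of 469, and only 1 of its libraries was under the Wnt5a range. The steps from QCM to SCM with anti-Ptk7 and from there to SCM with IgG were larger than the SD of either condition, and the other neighbours in the order were not separated by that much.

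For Emp2 the mean in QCM was close to that in complete media, and no difference between the members was tested. Complete media gave 62.4 ± 14.99 CPM, from 46.3 to 80.04 with a median of 61.6, and QCM gave 61.2 ± 10.3 CPM, from 48.9 to 78.1 with a median of 59.4. SCM gave 94.7 ± 19.7 CPM, from 75.0 to 129 with a median of 91.3, and Wnt5a gave 111 ± 13.7 CPM, from 97.3 to 137 with a median of 107. All Wnt5a libraries were above all complete media libraries, and the SCM libraries overlapped them in 2 of 6. The lowest level of all conditions was in SCM with anti-Ptk7, at 43.4 ± 10.1 CPM, from 34.7 to 62.9 with a median of 40.4, and every library of it was under every SCM library with IgG. Wnt5a with anti-Ptk7 gave 80.6 ± 25.9 CPM, from 63.5 to 133 with a median of 71.9, with 5 of 6 libraries under the Wnt5a range. In order of the mean, only the step from SCM with anti-Ptk7 to QCM was larger than the SD of either condition.

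Emp3 was lowest in complete media and highest in Wnt5a, as Emp1 was, but SCM with anti-Ptk7 lay between complete media and QCM. Complete media gave 5.29 ± 1.49 CPM, from 3.59 to 7.20 with a median of 5.30, and QCM gave 9.88 ± 3.85 CPM, from 6.41 to 16.03 with a median of 8.34. SCM gave 19.5 ± 6.24 CPM, from 13.2 to 29.7 with a median of 18.6. With anti-Ptk7 in SCM the level was 7.97 ± 2.93 CPM, from 3.85 to 11.4 with a median of 8.21, under every SCM library with IgG. Wnt5a gave the highest level, 30.2 ± 11.5 CPM, from 20.9 to 51.3 with a median of 27.5. Wnt5a with anti-Ptk7 gave 17.4 ± 8.31 CPM, from 11.2 to 33.8 with a median of 14.5, and 5 of 6 of its libraries were under the Wnt5a range. No step between neighbours in the order of the means was larger than the larger SD of the 2 conditions.

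**Figure D1:**
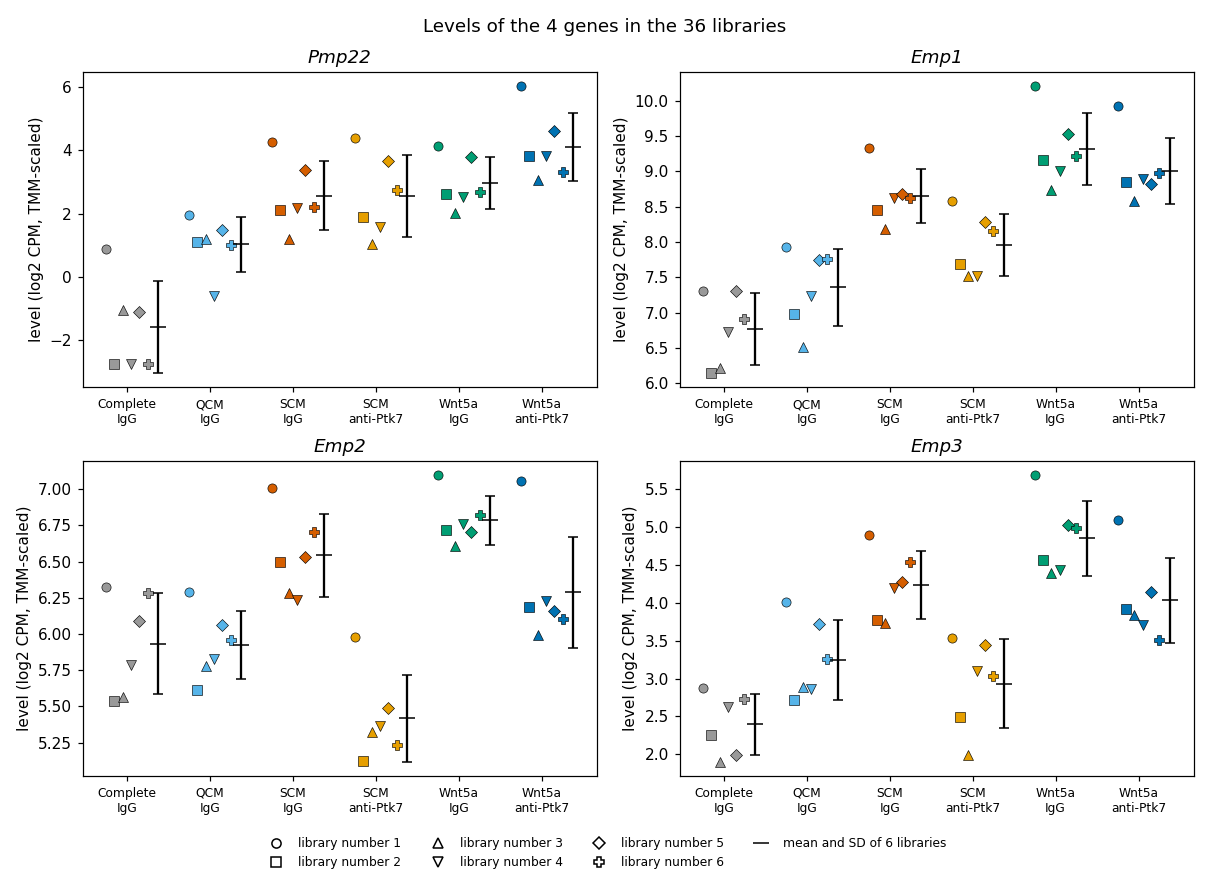
Level of each gene in the 36 libraries, as log2 CPM after TMM scaling, with one symbol per library number and a bar for the mean and SD of 6 libraries; the vertical axes differ between panels. The circle, library 1, is the highest point of Pmp22, Emp2 and Emp3 in all 6 conditions, and Emp2 and Emp3 are lower with anti-Ptk7 in SCM while Pmp22 is not.

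Levels of different genes can be compared only per length. Over the length of all annotated exons, the mean over the 36 libraries was 61.1 RPKM (CPM divided by the length in kb) for Emp1, 14.04 for Emp3, 8.74 for Emp2 and 3.51 for Pmp22. Emp1 was in the top 6.87% of the 15497 genes on this scale, and Pmp22 in the top 60.3%. These ranks depend on exon length, untranslated parts included, and were not computed per coding length. The study's methods describe counting within coding sequence, which is 525 bases for Emp1, 516 for Emp2, 489 for Emp3 and 480 for Pmp22 in the annotation used here. Per kb of coding sequence, Emp2 was above Emp3 in every condition, for example at 119 ± 19.99 against 20.2 ± 7.88 in QCM, where the exon scale gave 7.08 ± 1.19 for Emp2 and 9.22 ± 3.60 for Emp3. The order of Emp2 and Emp3 in QCM thus depended on the length used, whereas Emp1 was the highest and Pmp22 the lowest of the 4 on either scale in complete media, QCM, SCM and Wnt5a with IgG.

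The libraries of a condition differed in these genes mainly by their number. Library 1 was the highest of its condition in 6 of 6 conditions for Pmp22, Emp2 and Emp3 and in 5 of 6 for Emp1. It stood above the mean of its condition by 1.67 ± 0.55 for Pmp22, 0.71 ± 0.17 for Emp1, 0.48 ± 0.17 for Emp2 and 0.74 ± 0.20 for Emp3 (mean difference in log2 CPM, SD over 6 conditions). Library 5 was above the mean in 6 of 6 conditions for Pmp22, by 0.70 ± 0.26, and library 3 was the lowest in 5 of 6 conditions for Emp1. The number took 76.2% of the sum of squares within conditions for Pmp22, 84.6% for Emp1, 75.8% for Emp2 and 72.6% for Emp3, against a median of 20.8% over the 15497 genes. Only 0.755% of genes had a share as high as Emp1, and 2.65% had one as high as Emp3.

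**Figure D2:**
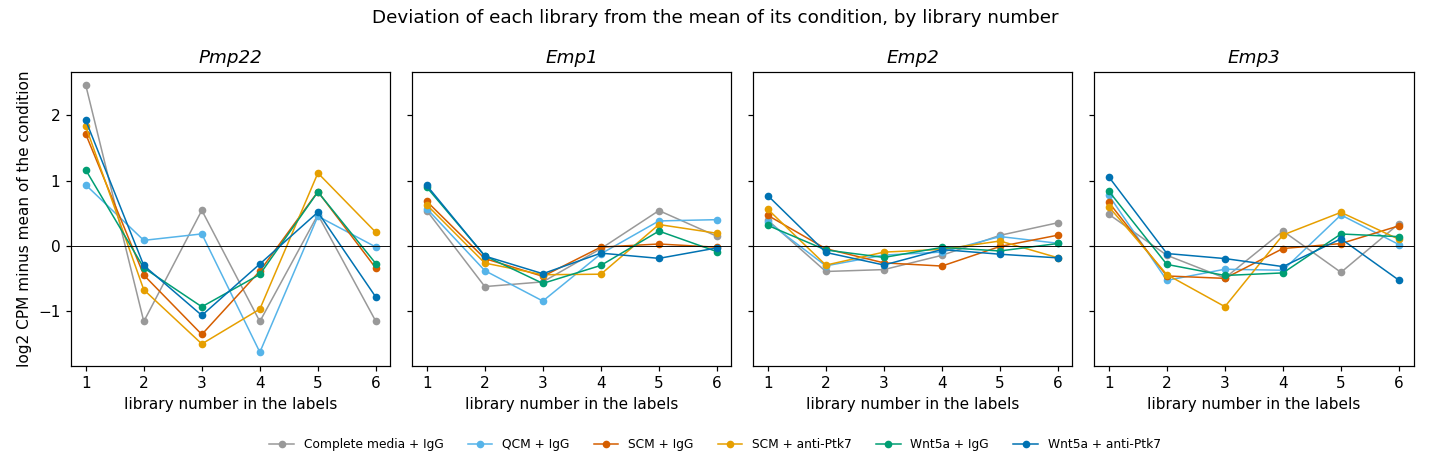
Difference of each library from the mean of its condition in log2 CPM (vertical axis) against the library number (horizontal axis), 1 line per condition. The 6 lines of a gene have a similar course, with number 1 above 0 in every condition and numbers 2 and 3 mostly under 0.

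Library 1 had the highest total count in 0 of 6 conditions and the lowest in 2, and the part of depth was not tested. The summed epithelial markers were highest in library 1 in 5 of 6 conditions and the fibroblast markers in 3 of 6. Whether the number stands for a mouse, a culture day or another shared factor was not tested. The model of condition means gives the main values below. The same model with the number as a block is also given where it changes a call of a member, relative, partner or myelin gene.

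Pmp22 and Emp3 had been chosen because they were raised in these libraries, and Emp3 also for its level with anti-Ptk7. Their values are therefore descriptions with no test in every comparison, and tests are given for Emp1 and Emp2 alone.

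In QCM against complete media, the base comparison of conditioned medium with plain medium, neither Emp1 nor Emp2 passed the test (adjusted p under 0.05 and a fold above 1.5), where 0.374% of all genes were called. The log2 fold change was 0.60 ± 0.26 for Emp1 (SE, edgeR adjusted p = 0.345) and -0.03 ± 0.17 for Emp2 (0.972). As descriptions, it was 2.59 ± 0.86 for Pmp22 and 0.90 ± 0.30 for Emp3. Pmp22, Emp1 and Emp3 were higher in QCM in 6 of 6 same-numbered pairs. With the number as a block Emp1 was called higher, at 0.59 ± 0.11 (edgeR adjusted p = 0.00142), and Pmp22 was at 2.88 ± 0.46 and Emp3 at 0.85 ± 0.17, where the block called 178 genes in all against 58 without it. Without library 1 of complete media, which held 16 of the 24 Pmp22 counts there, the Pmp22 value was 3.96.

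SCM against QCM compares the media of senescent and of quiescent fibroblasts, and its SCM libraries were used in choosing Pmp22 and Emp3. Per the study's methods these cells also differed in serum and in days of culture before collection, which cannot be told apart from senescence. Emp1 and Emp2 rose, where 0.903% of all genes were called. Emp1 rose 2.39-fold, at 1.26 ± 0.27 on the log2 scale (edgeR adjusted p = 0.0131), with no overlap between the 2 conditions. Emp2 rose 1.55-fold, at 0.63 ± 0.17 (edgeR adjusted p = 0.0434), with 4 of 6 SCM libraries above the highest QCM library. As descriptions, Emp3 was higher by 0.98 ± 0.28 and Pmp22 by 1.81 ± 0.63, each in 6 of 6 same-numbered pairs, and with the block by 0.99 ± 0.16 and 1.54 ± 0.33. The calls of Emp1 and Emp2 without the block were both lost on leaving out library 1 of SCM (edgeR adjusted p = 0.0503 and 0.151) or library 3 of QCM (0.0574 and 0.132). Emp2 alone also lost its call without library 2 or 4 of QCM, library 2, 5 or 6 of SCM or library 6 of Wnt5a (0.0516 to 0.125). With the block Emp1 was called at 1.28 ± 0.11 (edgeR adjusted p = 1.1e-09) and Emp2 at 0.62 ± 0.09 (2.5e-05). The block called 496 genes in all against 140 without it. A fit without the 6 libraries numbered 1, chosen after seeing the data, also called both (edgeR adjusted p = 0.00139 and 0.00403).

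The conditions with anti-Ptk7 were also set against QCM. QCM was given with IgG alone, so antibody and medium change together in these comparisons and cannot be told apart. Wnt5a was added to complete media without fibroblast medium, so its comparison also differs by the conditioned medium. In SCM with anti-Ptk7 neither Emp1 nor Emp2 was called, where 3.05% of all genes were called. Emp1 differed by 0.58 ± 0.26 (edgeR adjusted p = 0.166) and Emp2 by -0.49 ± 0.17 (0.0575), the latter lower in 6 of 6 same-numbered pairs. Without library 1 of SCM with anti-Ptk7 Emp2 was called lower, at -0.63 (edgeR adjusted p = 0.0199). The Emp3 difference was -0.31 ± 0.29, and that of Pmp22 was 1.91 ± 0.63 on the log2 scale or 3.77-fold. With the block Emp1 was called higher, at 0.59 ± 0.11 (edgeR adjusted p = 0.000468), among 669 genes against 473 without the block.

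In Wnt5a with anti-Ptk7 against QCM, Emp1 was called higher, where 14.7% of all genes were called. It was 3.12-fold higher, at 1.64 ± 0.27 on the log2 scale (edgeR adjusted p = 1.51e-05), and Pmp22 was at 3.41 ± 0.65 or 10.6-fold. In the same comparison 3 of the 7 epithelial markers (Cdh1, Krt8 and Krt18) and the fibroblast marker Fn1 were called higher. The markers did not all move the same way. Cdx2 was at a mean of 207 CPM against 269 in QCM, and Cldn7 at 1599 against 1689. Epcam and Vil1 were higher without a call. Of the fibroblast markers, Vim was at 3.80 CPM against 4.19 and Pdgfrb at 2.73 against 2.15. The part of the markers was not tested. Neither Pmp22 nor Emp1 overlapped between the 2 conditions, and without the 6 libraries numbered 1 they were at 2.95 and 1.51, with Emp1 still called. Without library 1 of Wnt5a with anti-Ptk7 alone the Pmp22 value was 2.75 on the log2 scale. Emp3 was 1.76-fold higher, at 0.82 ± 0.28, or 0.53 without that library. Emp2 differed by 0.40 ± 0.17 (edgeR adjusted p = 0.067), higher in 6 of 6 same-numbered pairs but in only 1 library above the QCM range. On leaving out 1 library at a time the Emp2 value ran from 0.21 to 0.48 (edgeR adjusted p from 0.0354 to 0.331).

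Added Wnt5a was compared with SCM with the same antibody on each side. With IgG neither Emp1 nor Emp2 was called, against a background of 0.69%, at 0.70 ± 0.26 for Emp1 and 0.23 ± 0.17 for Emp2 (log2 fold change ± SE, Wnt5a over SCM, edgeR adjusted p = 0.13 and 0.49). Both arms had been used in choosing Pmp22 and Emp3, which differed by 0.23 ± 0.59 and 0.63 ± 0.28. With the block Emp1 was called higher in Wnt5a, at 0.66 ± 0.11 (edgeR adjusted p = 0.000647), among 259 genes against 107 without it. With anti-Ptk7 on both sides Emp1 and Emp2 were called higher in Wnt5a, against a background of 1.53%. Emp1 was higher by 1.07 ± 0.26 (edgeR adjusted p = 0.0205) and Emp2 by 0.89 ± 0.17 (0.00663), and of the 4 genes only Emp2 had no overlap. The Emp3 difference was 1.12 ± 0.29, a description because the low Emp3 level in SCM with anti-Ptk7 was part of its choice. Pmp22 was at 1.49 ± 0.59, higher in 6 of 6 same-numbered pairs, and at 1.55 ± 0.29 with the block, which called 499 genes in all against 237 without it. Without library 1 of Wnt5a with anti-Ptk7 the call of Emp1 was lost (edgeR adjusted p = 0.135) and the Pmp22 difference was 0.82. The call of Emp1 was also lost without library 4 of SCM with anti-Ptk7 (0.0647). Without library 1 of SCM with anti-Ptk7 the Pmp22 difference was 2.05. A fit of these 2 conditions alone called none of the 4 and 12 genes in all.

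**Figure D3:**
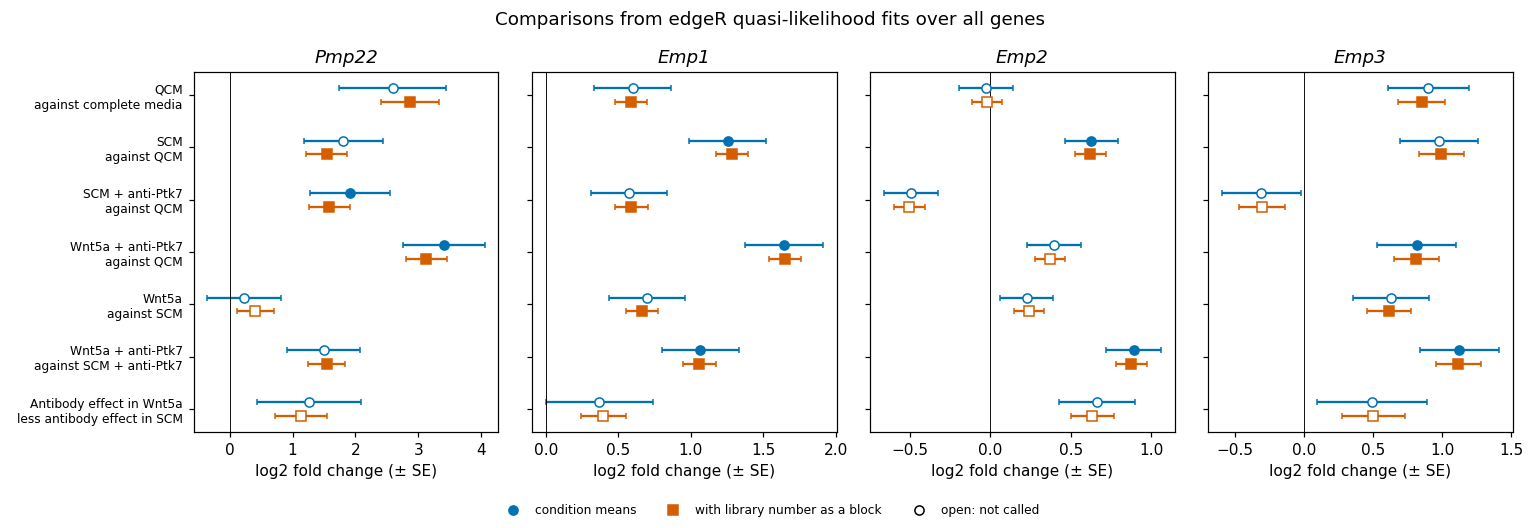
Log2 fold change with its SE (horizontal axis) of each gene in the 6 comparisons above and, in the bottom row, the difference between the antibody's effects in Wnt5a and SCM, from the model of condition means (circles) and with library number as a block (squares); filled symbols met the criteria for a call, from which nothing is read for Pmp22, for Emp3 or for the bottom row. The estimates of both models lie close together, and the error bars are shorter with the block.

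The comparisons used in choosing the family were these. SCM was higher than complete media by 4.402 ± 0.81 for Pmp22, 1.86 ± 0.27 for Emp1, 0.60 ± 0.17 for Emp2 and 1.88 ± 0.30 for Emp3 (log2 fold change ± SE). Wnt5a was higher than complete media by 4.63 ± 0.81, 2.56 ± 0.28, 0.83 ± 0.17 and 2.51 ± 0.30 in the same order. All 4 genes met the criteria for a call in both, where 6.08% and 10.2% of all genes did, and nothing is read from these counts. The Pmp22 values rest on the 24 counts in complete media and were 5.77 and 6.00 without library 1 of that condition.

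Between anti-Ptk7 and IgG the Emp genes and Pmp22 did not share a direction. In SCM the 3 Emp genes were lower with anti-Ptk7 in 6 of 6 same-numbered pairs, by -0.68 ± 0.26 for Emp1, -1.12 ± 0.17 for Emp2 and -1.29 ± 0.29 for Emp3, while Pmp22 was at 0.10 ± 0.59 and higher in 3 of 6 pairs. In Wnt5a the 3 Emp genes were again lower in 6 of 6 pairs, by -0.31 ± 0.26, -0.46 ± 0.17 and -0.80 ± 0.28, but Pmp22 was higher in 6 of 6 pairs, by 1.37 ± 0.58. Pair by pair, the Pmp22 difference in Wnt5a ran from 0.63 to 1.91 with a median of 1.10, and that of Emp3 from -1.49 to -0.56 with a median of -0.69. In SCM 2 of the 4 genes, Emp2 and Emp3, met the criteria for a call, where 1.23% of all genes did. In Wnt5a 0 of 4 did, where 0.884% of all genes did. With the block 3 members met them in SCM, with Emp1 at -0.69 ± 0.11, among 399 genes against 190 without it. In Wnt5a 2 met them with the block, Pmp22 at 1.18 ± 0.29 and Emp3 at -0.80 ± 0.16, among 255 genes against 137. Nothing is read from these counts. Without library 1 of Wnt5a with anti-Ptk7 the Pmp22 difference in Wnt5a was 0.68. These comparisons share their IgG libraries with those against complete media.

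**Figure D4:**
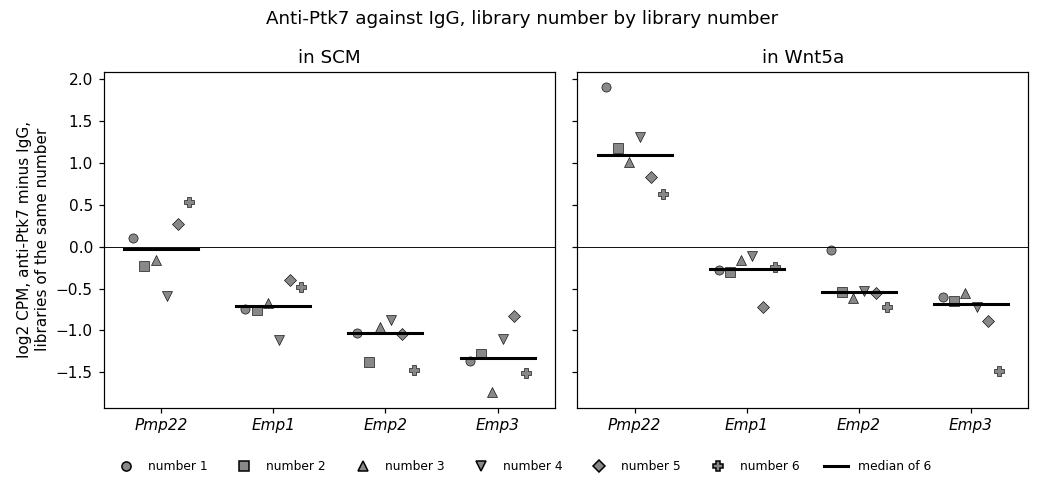
Difference in log2 CPM between the anti-Ptk7 and the IgG library of the same number (vertical axis) for each gene (horizontal axis), in SCM (left) and in Wnt5a (right); the bar is the median of 6. Emp1, Emp2 and Emp3 lie under 0 in all pairs of both panels, and Pmp22 lies above 0 in all 6 pairs in Wnt5a and on both sides of 0 in SCM.

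The difference between the antibody's effect in Wnt5a and in SCM is made of comparisons used in the choice and is given for the members as a description. It was 1.26 ± 0.83 for Pmp22, 0.37 ± 0.37 for Emp1, 0.66 ± 0.24 for Emp2 and 0.49 ± 0.40 for Emp3 on the log2 scale. In the edgeR test over all genes the background was 0% called, with 602 of 15497 genes at an unadjusted p under 0.05 and 3 genes called with the block, none of them a member. The 95% interval for Pmp22 ran from -0.36 to 2.88, and its value was 0.58 without library 1 of Wnt5a with anti-Ptk7.

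The members' patterns over the 36 libraries were alike to different degrees. Emp1 and Emp3 were the closest pair, with Pearson's r of 0.90 in log2 CPM over 36 libraries, and Pmp22 and Emp2 the least alike, at 0.43. After the mean of each condition was taken out, all 6 pairs lay between 0.67 and 0.83, so that Pmp22 and Emp2 were at 0.67. The points share their conditions and their numbers, so these values are descriptions. Likeness to other genes was ranked over the 36 libraries with the conditions left in, so that it is in large part likeness across conditions. Among 12456 other genes with a mean log2 CPM over 1, Pmp22 was most like Krt20 (r = 0.94), a keratin of mature surface epithelium, followed by Gch1, Foxq1, Lama3 and Gsdmd. Emp1 was most like Samd5 and Cav2 (both r = 0.97), with Ano1 and Clu, the secreted chaperone clusterin, also among its nearest genes. Emp2 had looser neighbours, Reep5 (r = 0.88), Gm15270, Ccn2, Anxa1 and Abcc1, and with the mean of each condition taken out Reep5 was at rank 396, Gm15270 at 674 and Ccn2 at 509, while Anxa1 was at rank 3. Emp3 was most like Tuba1a (r = 0.94), Ctsl, Anxa5, Rras and Anxa1, a phospholipid-binding annexin that was also on the Emp2 list.

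Of 27 relatives in the wider superfamily other than claudins, 4 had enough counts to be tested. These were Perp, a desmosomal protein and p53 target, Cldnd1, Clrn3 and Lhfpl2. In 7 tests, the 6 comparisons not used in the choice and the difference between the antibody's effects, 0 of the 4 passed, against backgrounds of 0 to 14.7%, with median log2 fold changes of -0.04 to 0.23. With the block Lhfpl2 was called higher in SCM with anti-Ptk7 and in Wnt5a with anti-Ptk7 against QCM. It was the only 1 of the 4 called in each, where 4.32% and 15.4% of all genes were called. Perp was the most abundant, with means of 289 CPM in complete media, 346 in QCM, 447 in SCM and 438 in Wnt5a. It was called higher than in complete media in SCM, by 0.63 ± 0.09 (edgeR adjusted p = 1.81e-05), and in Wnt5a, by 0.60 ± 0.09 (1.79e-05), the only 1 of the 4 to be called in either, where 6.08% and 10.2% of all genes were called. The other 23, among them the lens gene Lim2 and the Cacng genes of the calcium channel gamma subunits, had at most 72 counts in total.

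Of 15 genes whose products bind or act with family members, 12 were tested. In Wnt5a with anti-Ptk7 against QCM 6 of the 12 rose and 0 fell, where 14.7% of all genes were called, with a median log2 fold change of 0.70 against 0.03 over all genes. In a fit without library 1 of Wnt5a with anti-Ptk7, added after seeing the data, 4 of the 12 rose, Itgb4, Itgb1, Itgav and Itgb5, where 10.5% of all genes were called, with a median of 0.49. The summed level of the partner genes in that condition had a median of 2739 CPM and a highest library at 4367 CPM. The 3 of 7 epithelial markers called higher in this comparison were called without library 1 too, and the part of the markers in the partner counts was not tested. In the fit of all libraries the 6 were Itgb4 (1.24 ± 0.25, edgeR adjusted p = 0.000191), the partner of Itga6 in hemidesmosomes, Itgav (1.17 ± 0.22), Itgb1 (0.80 ± 0.12), Itgb5 (0.75 ± 0.18), Itga6 (0.73 ± 0.19) and the junction scaffold Tjp1 (0.66 ± 0.16). Itgb5 also rose in QCM against complete media, by 1.13 ± 0.18 (edgeR adjusted p = 0.000696), the only 1 of the 12 to do so, where 0.374% of all genes were called. Itgb4 rose in Wnt5a with anti-Ptk7 against SCM with anti-Ptk7, by 0.89 ± 0.25 (edgeR adjusted p = 0.0359), the only 1 of 12 where 1.53% of all genes were called. Without library 1 of Wnt5a with anti-Ptk7 0 of 12 were called there, where 0.129% of all genes were. The median log2 fold change was 0.24 in that fit and 0.46 with all libraries. Itgb4 alone was called there with the block (3.22% of all genes) and without the 6 libraries numbered 1 (1.32%). In SCM and in SCM with anti-Ptk7 against QCM 0 of 12 passed, where 0.903% and 3.05% of all genes were called, with medians of 0.28 and 0.23 against -0.01 and 0.01 over all genes. With the block Itgb4 and Cav1 were called higher in SCM, 2 of 12 where 3.2% of all genes were called. Without the 6 libraries numbered 1 Itgb4 alone was called in SCM (1.81% of all genes). Without library 1 of Wnt5a with anti-Ptk7 Cav1 alone was called in SCM (1.68%) and Itgav alone in SCM with anti-Ptk7 (3.32%). Ptk2, the focal adhesion kinase, and Canx and Rer1, which retain PMP22 in the secretory pathway, passed none of the 7 tests. Against complete media 3 of the 12 were called higher in SCM and 7 in Wnt5a, where 6.08% and 10.2% of all genes were called. With the block 6 were called in Wnt5a (11% of all genes), without Src. Without the 6 libraries numbered 1, 5 were called in Wnt5a (8.73%), without Src and Itgb1. Of the 7 epithelial markers, 2 were also called higher in SCM and 3 in Wnt5a, with Fn1 in Wnt5a, and their part was not tested. Cav1, the caveolae protein caveolin, was among those called against complete media in both. It was also called lower with anti-Ptk7 in SCM (edgeR adjusted p = 0.0498), the only 1 of the 12 where 1.23% of all genes were called. Without the 6 libraries numbered 1, a fit chosen after seeing the data, 0 of 12 were called there, where 1.33% of all genes were. With the block Cav1 alone was called lower with anti-Ptk7 in SCM and in Wnt5a, where 2.57% and 1.65% of all genes were called. It was at 0 counts in 24 of 36 libraries, among them all of complete media and of SCM with anti-Ptk7, and had means of 0.82 CPM in SCM and 1.64 CPM in Wnt5a, so that no fold is given.

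Most genes of the myelin program in which PMP22 is best known had few counts. Of 11 genes, 5 were tested and 0 passed any of the 7 tests, against backgrounds of 0 to 14.7%, with median log2 fold changes of -0.01 to 0.76. Mag, a myelin adhesion protein, had 9 counts over 36 libraries and Sox10, the Schwann cell transcription factor, had 4. Mbp was at 139 to 169 CPM in the 6 condition means, and its gene also gives rise to transcripts outside myelin, while Prx, the periaxin gene, was at 2.39 to 4.76 CPM. Mal, a proteolipid of myelin and of epithelial apical membranes, was called higher than in complete media in SCM (edgeR adjusted p = 0.0302) and in Wnt5a (0.000901), the only 1 of the 5 to be called in either, where 6.08% and 10.2% of all genes were called. Its mean levels were 1.06 CPM in SCM, 2.83 CPM in Wnt5a and 0.089 CPM in complete media, where it had so few counts that no fold is given, and without the 6 libraries numbered 1 it was called in Wnt5a but not in SCM. Pmp22 held 3865 counts over the same libraries.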

How the data were processed

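Libraries were made from 2 ng of total RNA with Smart-Seq V4 and Nextera XT, which keep no strand, and read as 50-base single ends. Per the labels and the study's methods, the authors aligned reads with GSNAP to mm10 and deposited whole-number counts per gene, counted within coding sequence. These deposited counts were used as they stand, and symbols and positions came from GENCODE vM21. Genes were filtered with filterByExpr, scaled by TMM and tested in edgeR 4.0.16 (R 4.3.3) with 1 quasi-likelihood model of 6 condition means over 15497 genes and Benjamini-Hochberg adjustment. Log2 CPM used a prior count of 2. The study's cutoffs, 0.05 for the adjusted p and 1.5 for the fold, defined a call. The members and gene lists were chosen with earlier results of these data known. Named genes were the members, called or leading genes of the lists, and the 5 genes most like each member, of which some are not reported here. All 90 pairs of replicates differed by more than sampling noise (chi-square per gene of 7.28 or more). The series' design names 6 mice numbered 1 to 6, but no label ties a library number to a mouse, so the numbers were treated as possible pairs. The deviations of same-numbered libraries correlated at a mean of 0.09 over all genes, against -0.02 for different numbers, and 34 of 90 pairs were over 0.1. P-values, SEs and the 95% interval come from the same fits and take in the spread between these libraries. Floors cover counting error only. Alternatives were voom with limma 3.58.1, with quantile normalization (the authors' method) or TMM, DESeq2 1.42.0, other scalings and filters, glmTreat, the block, the compared groups alone and each library left out. Protein sequences were not used here.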

Additional observations from a re-analysis of the deposited data

Results flagged for a closer look

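In 7 of 24 sets of 6 libraries (4 genes in 6 conditions) the highest library stood apart from the rest by Dixon's criterion, and in all 7 it was library 1. Chance would mark about 1 in 20 independent sets, but these sets share libraries, and nothing is read from their number. For Pmp22 they were complete media, at 1.67 CPM with the next library at 0.334, and Wnt5a with anti-Ptk7, at 65.4 CPM with the next at 24.6. For Emp1 they were SCM, at 644 CPM with the next at 410, and Wnt5a with anti-Ptk7, at 977 CPM with the next at 503. For Emp2 they were SCM with anti-Ptk7, at 62.9 CPM with the next at 44.8, and Wnt5a with anti-Ptk7, at 133 CPM with the next at 74.9. For Emp3 it was Wnt5a with anti-Ptk7, at 33.8 CPM with the next at 17.5. On the log2 scale 2 of the 7 remained apart, Emp1 and Emp2 in Wnt5a with anti-Ptk7. Library 1 of Wnt5a with anti-Ptk7 thus stood apart for all 4 genes, and it also had the highest sums of epithelial (21668 CPM) and fibroblast markers (66.3 CPM) of the 36 libraries.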

How the results depend on the processing

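Criteria for a call are counted here for all 4 genes, and for Pmp22 and Emp3, which are descriptions, nothing is read from them. With the replicate block (library number as a term), the criteria were newly met by Pmp22 (2.88), Emp1 (0.59) and Emp3 (0.85) in QCM against complete media (3 members), Pmp22 (1.54) and Emp3 (0.99) in SCM against QCM (4 members), Emp1 (0.59) in SCM with anti-Ptk7 against QCM (2 members), Emp1 (0.66) and Emp3 (0.62) in Wnt5a against SCM (2 members) and Pmp22 (1.55) in Wnt5a against SCM with anti-Ptk7 on both sides, all as log2 fold changes. In anti-Ptk7 against IgG the block let 3 members meet the criteria in SCM in place of 2, adding Emp1 (-0.69), and 2 in Wnt5a in place of 0, Pmp22 (1.18) and Emp3 (-0.80). The block changed this for no other member. Same-numbered libraries deviated together at a mean correlation of 0.09, between 0.02 and 0.24 by number, and 16 of 36 libraries were closest to one of their own number.

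With DESeq2, Pmp22 met the criteria in QCM against complete media (2.52, 1 member), and Emp3 in SCM against QCM (0.99). Emp3 also met them there with voom and TMM (0.99), library size alone (0.98) and the compared groups alone (0.99). Without a filter on low counts Emp2 lost its call in SCM against QCM (0.63, 1 called). Pmp22 in SCM with anti-Ptk7 against QCM no longer met the criteria with voom after quantile normalization (1.54) or TMM (1.62) and without the filter (1.91), leaving 0 members, as did a minimum of 10 counts in every library, which dropped the gene. In Wnt5a against SCM with anti-Ptk7 on both sides, with the compared groups alone Emp1 (1.08) and Emp2 (0.90) lost their calls, and Emp3 (1.13) no longer met the criteria, leaving 0 members. Tested against a 1.5-fold change (glmTreat), the criteria were no longer met by Emp1 (1.26) and Emp2 (0.63) in SCM against QCM, Pmp22 (1.91) in SCM with anti-Ptk7 against QCM, Emp3 (0.82) in Wnt5a with anti-Ptk7 against QCM, and Emp1 (1.07), Emp2 (0.89) and Emp3 (1.12) in Wnt5a against SCM with anti-Ptk7, and 0 members met them in those comparisons other than Wnt5a with anti-Ptk7 against QCM, or in anti-Ptk7 against IgG in SCM. Voom with quantile normalization gave 1 member in anti-Ptk7 against IgG in Wnt5a. Without the 6 libraries numbered 1, chosen after seeing the data, Pmp22 met the criteria in QCM against complete media (3.75, 1 member), Emp3 in SCM against QCM (0.995) and 1 member in anti-Ptk7 against IgG in Wnt5a. Where no construction shows it, the cause was not tested.

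Leaving out 1 library at a time gave these ranges. In QCM against complete media they were 2.30 to 3.96 for Pmp22, -0.11 to 0.054 for Emp2 (its sign turned in 4 fits) and 0 to 1 members called. In SCM against QCM they were 1.09 to 1.38 for Emp1, 0.52 to 0.71 for Emp2, 0.82 to 1.17 for Emp3 and 0 to 3 called. In SCM with anti-Ptk7 against QCM they were 1.36 to 2.14 for Pmp22, -0.63 to -0.41 for Emp2 and 0 to 1 called. In Wnt5a with anti-Ptk7 against QCM Pmp22 ran from 2.75 to 3.63 and Emp3 from 0.53 to 1.00, and in Wnt5a against SCM Pmp22 ran from -0.067 (without library 1 of Wnt5a) to 0.80. With anti-Ptk7 on both sides, Wnt5a against SCM gave 0.82 to 2.05 for Pmp22, 0.82 to 1.21 for Emp1, 0.83 to 1.26 for Emp3 and 1 to 4 called. Against complete media Pmp22 ran from 3.84 to 5.77 in SCM and from 4.33 to 6.00 in Wnt5a, and 0 to 2 members were called in anti-Ptk7 against IgG in Wnt5a. The Pmp22 values against complete media are limited by its 24 counts there.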
